A study of Ovis aries with 6 samples.

Results

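The clock output genes examined here are the PAR bZIP transcription factors DBP, HLF and TEF, their bZIP counterpart NFIL3, the bHLH repressors BHLHE40 and BHLHE41, the clock repressor CIART and the nocturnin gene NOCT. They were chosen by gene symbol, with earlier results of these data known, and all 8 were found among the 23144 genes of the count table. DBP, HLF, TEF, NFIL3, BHLHE40 and BHLHE41 stand there under their own symbols. NOCT is listed under its older symbol CCRN4L, and CIART was read from the row C1H1orf51, which the homology column of the table pairs with CIART. The counts come from the longissimus dorsi muscle of 3 ewes of the Qianhua Mutton Merino breed (QHMM) and 3 of the Small Tail Han breed (STH), all 1 year old, each of which gave 1 library. QHMM was bred by crossing South African Mutton Merino rams with Northeast Fine-wool ewes and selecting among the offspring, whereas STH is a traditional local breed, and no animal received a treatment. Housing, lighting (daylight) and feeding (unrestricted) did not differ by breed according to the methods, and the sheep were weighed after a fast, before slaughter. The hour at which each animal was killed is not given in the sources used here, so its part in the values below was not tested.

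In nearly every mammalian cell, CLOCK and ARNTL (BMAL1) drive genes with E-box elements, and the period and cryptochrome proteins made from some of these genes shut CLOCK and ARNTL off again. DBP, HLF and TEF are among the genes driven in this way, and their proteins carry the daily rhythm to further genes by activating through the D-box, an element that NFIL3 occupies as a repressor. BHLHE40, BHLHE41 and CIART act back on CLOCK and ARNTL as repressors, and the levels of many of these mRNAs change over the day in skeletal muscle as in other tissues.

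Each library had 10982191 to 14334544 reads counted on genes, and 12506 genes passed edgeR's filter for low counts, among them all 8 clock output genes. Principal component 1 of these genes (44.1% of variance) split QHMM from STH, whereas component 2 (19.1%) set QHMM replicate 2 and STH replicate 3 against the remaining 4 libraries. Of the tested genes, 3.45% were called in STH vs. QHMM, that is, had an FDR below 0.05 by edgeR's quasi-likelihood test and a change of more than 1.5-fold. The fibre markers of the labelled tissue were abundant, with ACTA1, CKM, DES, TTN and the fast myosin gene OMYHC2A summing to 66660 to 108200 RPKM in each library. RPKM relates the reads of a gene to its length and to the depth of its library, so that levels can be set side by side between genes. Markers of some cell types differed between the breeds: 4 of 5 adipocyte markers (ADIPOQ, PLIN1, LEP and CIDEC) and 4 of 6 slow-fibre markers were called lower in STH. By edgeR, 0 of 4 tested fast-fibre, 0 of 3 endothelial, 0 of 5 fibroblast and 0 of 4 leukocyte markers were called. At an unadjusted p below 0.05, 2 of the fast-fibre markers, 2 of the fibroblast markers and 0 of the endothelial and leukocyte markers would have passed. Those 2 fast-fibre markers, OMYHC2A and ACTN3, were lower in every STH library than in any QHMM library. The summed level of the adipocyte markers was 59.2 to 276 RPKM in QHMM and 40.3 to 129 RPKM in STH, and that of the slow-fibre markers 15760 to 22440 and 6962 to 10560 RPKM. The part of these cell types in the results below was not tested. In whole muscle, fewer cells of a type and less RNA per cell cannot be told apart.

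CIART was the clock output gene that differed most between the breeds, with a level several times higher in STH. HLF, TEF and BHLHE40 had lower counts in every STH library than in any QHMM library, by 1.65-fold to 2.39-fold, but were not past the FDR threshold. DBP, NFIL3, BHLHE41 and NOCT overlapped between the breeds. Of the 8 genes, 1 was called higher and 0 lower in STH, while 3.45% of all tested genes were called, 1.62% higher and 1.83% lower. Libraries of the breeds did not overlap for 4 of the 8 genes, 1 higher and 3 lower in STH, beside 24.7% of all tested genes, 13% higher and 11.7% lower. An unadjusted p below 0.05 by edgeR was reached by 4 of the 8 genes and by 19.2% of all tested genes. The median log2 fold change was -0.33 over the family and 0.02 over all tested genes.

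**Figure D1:**
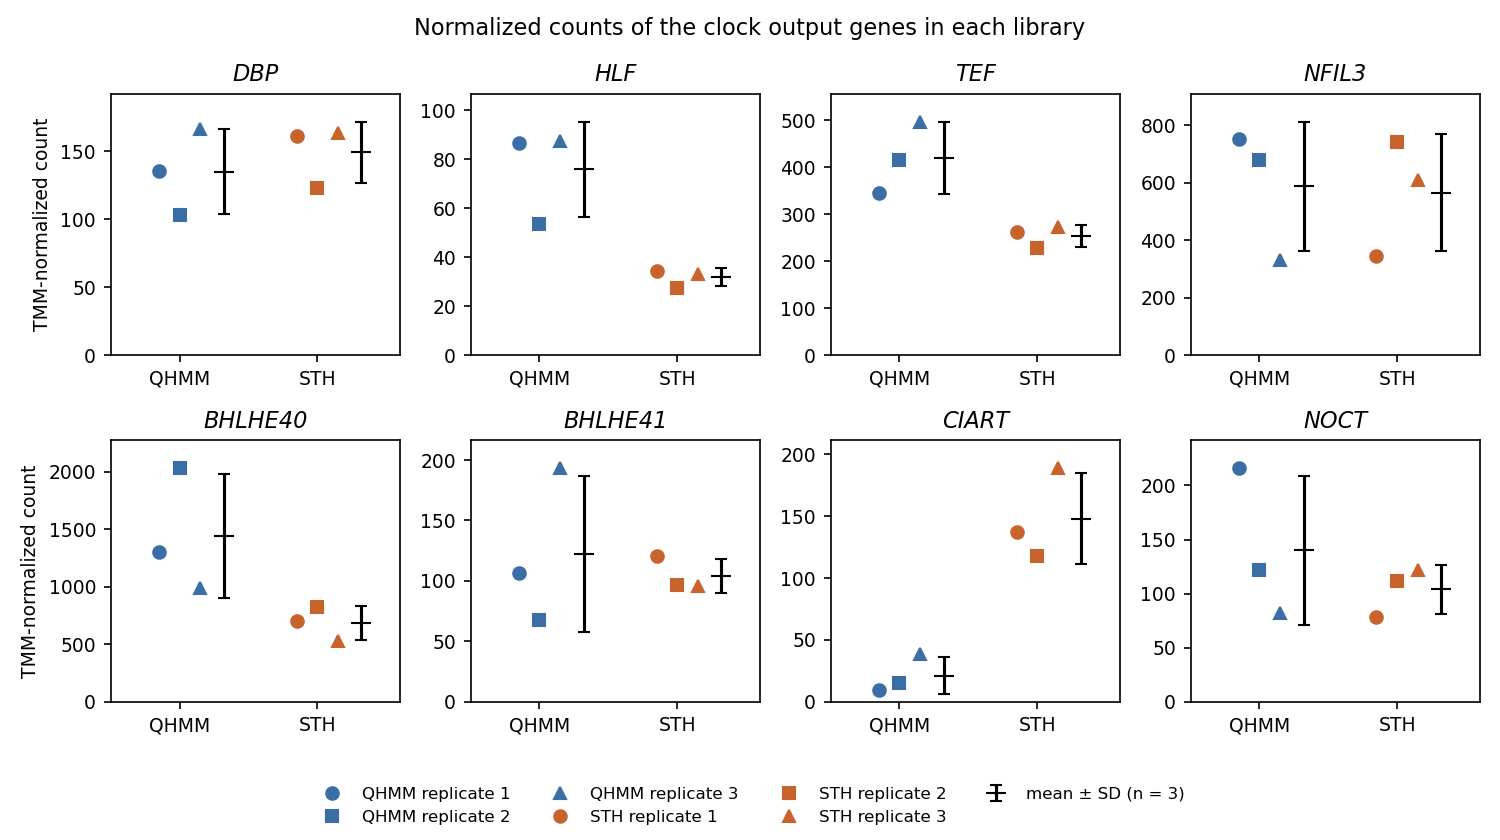
TMM-normalized counts (y axis, from 0, a separate scale for each gene) of the 8 clock output genes in the 3 QHMM and 3 STH libraries, with symbols for the replicates and black bars for the mean ± SD (n = 3 per breed). The STH libraries lie above those of QHMM for CIART, below them for HLF, TEF and BHLHE40, and overlap them for DBP, NFIL3, BHLHE41 and NOCT.

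The order of the genes by RPKM, which is a level per gene length, differed between the breeds. In QHMM, BHLHE40 was highest with 85.1 ± 22.6 RPKM (mean ± SD, n = 3), followed by TEF with 41.8 ± 9.52 and NFIL3 with 31.5 ± 11.8. DBP (11.02 ± 3.49), BHLHE41 (10.9 ± 6.48), HLF (7.02 ± 2.37) and NOCT (5.46 ± 2.93) formed a run in which each overlapped the next, and CIART was lowest with 1.39 ± 1.09. BHLHE40 lay above TEF, NFIL3 above DBP, and NOCT above CIART in every pair of QHMM libraries, whereas TEF and NFIL3 overlapped. In STH, BHLHE40 (46.0 ± 15.7), NFIL3 (32.7 ± 11.9) and TEF (27.4 ± 4.38) overlapped in turn at the top. DBP had 13.0 ± 2.68 RPKM, CIART 10.2 ± 1.29, BHLHE41 9.97 ± 2.84, NOCT 4.31 ± 0.587 and HLF 3.14 ± 0.644. CIART therefore moved from the lowest of the 8 genes in QHMM to the fifth in STH, where it overlapped BHLHE41, and HLF was the lowest in STH, where it overlapped NOCT. Over all 6 libraries, the mean RPKM of BHLHE40 stood at percentile 92.5 of the tested genes, that of TEF at 87.1, NFIL3 at 86.3, DBP at 70.5, BHLHE41 at 67.5, CIART at 52.8, HLF at 49.5 and NOCT at 48.5. The gene lengths implied by the counts and RPKM were multiples of 3 for 7 of the 8 genes, against 44.2% of all genes, as for models that hold the coding part alone, so a comparison of levels between genes rests on what each model covers.

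DBP, HLF and TEF are close relatives that activate through the same element, and none of them was called between the breeds. DBP, the D-box binding protein, measured 136, 103 and 166 normalized counts across the QHMM libraries, given here and below in the order of replicates 1 to 3, against 161, 123 and 163 across those of STH. Normalized counts are reads scaled to a common library size by edgeR's TMM factors. All 3 STH libraries lay within the range of QHMM for DBP. The log2 fold change of DBP was 0.14 (SE 0.26, 95% interval -0.43 to 0.72, edgeR FDR = 0.815), and without QHMM replicate 2 it was -0.011. HLF, the hepatic leukemia factor, had 86.8, 53.4 and 87.6 normalized counts across the QHMM libraries against 34.4, 27.6 and 33.3 across those of STH. QHMM replicate 2 was the lowest of its breed for HLF and still above all STH libraries, which differed little among themselves. The log2 fold change of HLF was -1.26 (SE 0.31, 95% interval -1.95 to -0.56), or 2.39-fold lower in STH, and its edgeR FDR of 0.0569 missed the threshold. TEF, the thyrotroph embryonic factor, had 346, 416 and 498 normalized counts in QHMM and 262, 228 and 272 in STH. The breeds did not overlap for TEF, whose log2 fold change was -0.72 (SE 0.22, 95% interval -1.21 to -0.24, edgeR FDR = 0.101), or 1.65-fold lower in STH.

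The makeup of this group of activators can be read from RPKM within each library, without any scaling between libraries. TEF made up most of the summed RPKM of the 3 genes in all libraries, with 61.8% to 75.8%. The share of DBP was 20.5%, 15.3% and 18.9% across the QHMM libraries against 30.8%, 28.3% and 30.4% across those of STH. Every STH library thus had a larger share of DBP than any QHMM library, and the share of HLF was 8.91% to 14.8% in QHMM and 7.004% to 7.41% in STH. TEF and HLF had a lower RPKM in every STH library, whereas the RPKM of DBP overlapped between the breeds. The larger share of DBP follows largely from the lower TEF and HLF, and adds no support for a difference in DBP itself. The sum itself was 59.8 ± 14.2 RPKM in QHMM (mean ± SD, n = 3) and 43.5 ± 7.63 in STH (n = 3), with overlapping libraries.

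NFIL3, the repressor at the D-box, varied widely within both breeds and did not separate them. It had 754, 679 and 332 normalized counts across the QHMM libraries against 344, 743 and 609 across those of STH, a 2.27-fold range within QHMM and a 2.16-fold range within STH. Its log2 fold change was -0.06 (SE 0.35, 95% interval -0.83 to 0.71, edgeR FDR = 0.949). A difference of any size inside that interval is compatible with the values of these 6 animals. With 1 library left out, its value turned to 0.14 (QHMM replicate 1), 0.06 (QHMM replicate 2) or 0.18 (STH replicate 1). The ratio of the summed RPKM of DBP, HLF and TEF to that of NFIL3 was 1.31, 1.48 and 3.94 in QHMM and 2.27, 0.872 and 1.31 in STH. This ratio ranged more within QHMM, and within STH, than it differed between the means of 2.24 and 1.48.

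**Figure D2:**
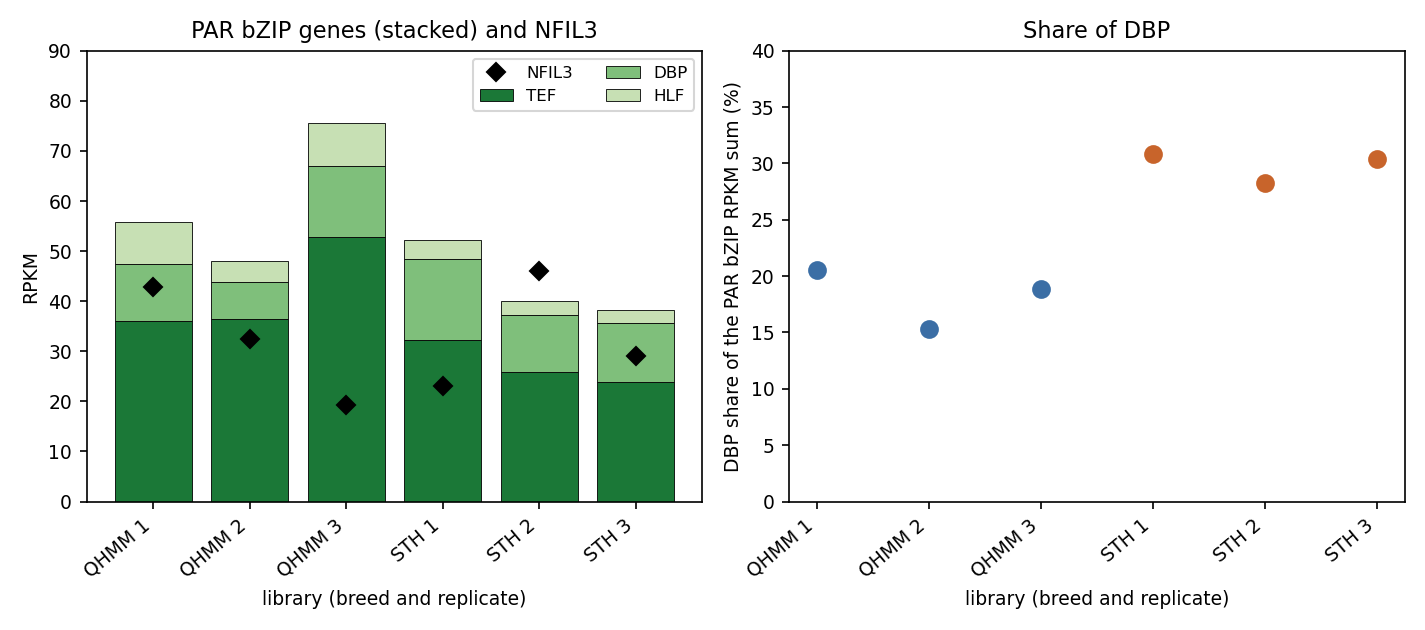
Left, RPKM of TEF, DBP and HLF as stacked bars and of NFIL3 as diamonds in each library (y axis from 0). Right, the percentage of the summed RPKM of TEF, DBP and HLF that belongs to DBP, with QHMM in blue and STH in orange. NFIL3 is lowest in QHMM replicate 3, where the stack is tallest, and highest in STH replicate 2, where the stack is taller than in STH replicate 3. The share of DBP is 15.3% to 20.5% in QHMM and 28.3% to 30.8% in STH, while the RPKM of DBP itself overlaps between the breeds.

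BHLHE40 and BHLHE41 (DEC1 and DEC2) encode paralogous repressors that bind E-boxes, and neither was called. BHLHE40 had 1300.4, 2032 and 987 normalized counts across the QHMM libraries against 704, 824 and 524 across those of STH. Each STH library lay below each QHMM library, and the mean was 1440.0 ± 536 in QHMM (SD, n = 3) and 684 ± 151 in STH (n = 3). The log2 fold change of BHLHE40, -1.07 (SE 0.30, 95% interval -1.73 to -0.42), or 2.11-fold lower in STH, missed the threshold with an edgeR FDR of 0.0765. BHLHE41 had 106, 67.4 and 193 normalized counts in QHMM and 120.4, 96.5 and 95.6 in STH. QHMM replicates 2 and 3 were the lowest and the highest of all libraries for BHLHE41, so that the STH libraries fell between them. The log2 fold change of BHLHE41 was -0.23 (SE 0.36, 95% interval -1.02 to 0.56, edgeR FDR = 0.775), and it turned to 0.26 without QHMM replicate 3. The RPKM of BHLHE40 was 8.53, 21.0 and 3.56 times that of BHLHE41 in QHMM and 4.08, 5.95 and 3.82 times in STH. The paralogs stood furthest apart in QHMM replicate 2 and nearest in QHMM replicate 3. Whether the breed difference of BHLHE40 was itself different from that of BHLHE41 was not tested, and their intervals overlap.

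CIART, also known as CHRONO, represses the transcription driven by CLOCK and ARNTL. Its raw reads numbered 11, 13 and 38 across the QHMM libraries against 168, 111 and 170 across those of STH. With so few reads, counting alone gives an exact 95% Poisson interval of 5.49 to 19.7 for the 11 reads of QHMM replicate 1 and of 26.9 to 52.2 for the 38 reads of replicate 3; reads amplified by PCR are not independent, so these cover counting error only. In normalized counts, CIART had 9.74, 15.1 and 38.3 in QHMM and 138, 118 and 189 in STH, so that the lowest STH library was well above the highest QHMM library. CIART rose, with means of 21.0 ± 15.2 (SD) for QHMM and 148 ± 36.8 for STH over 3 libraries each. This was a 7.02-fold difference, or 2.81 on the log2 scale (SE 0.45, 95% interval 1.82 to 3.81, edgeR FDR = 0.0128). With any 1 library left out, CIART was still called, with a log2 fold change between 2.43 and 3.58 and an FDR between 0.00838 and 0.0402. QHMM replicate 3 bore most on its size: without that library the fold was 11.99. Without both libraries that lay apart, QHMM replicate 2 and STH replicate 3, only 2 libraries per breed remained, and CIART had a log2 fold change of 2.41 with an FDR of 0.134. In the RefSeq gene table of another sheep assembly (ARS-UI_Ramb_v3.0) CIART overlaps C1H1orf54, and whether the counting used strand is not stated. C1H1orf54 had 89, 60 and 45 reads in QHMM and 67, 47 and 47 in STH, without the higher level in STH that CIART had. BHLHE41 overlaps SSPN in the same way, and TEF and BHLHE40 each overlap another gene that has no row in the count table. These overlaps are of whole gene spans, and neither exons nor strands were compared. Where exons on opposite strands overlap, reads of a pair cannot be told apart without strand.

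Ratios within a library show how the order of CIART and other members changed; HLF and BHLHE40 were themselves lower in every STH library, so these ratios separate the breeds by construction and add no support to the result for CIART. Its RPKM was 0.0802, 0.202 and 0.312 times that of HLF across the QHMM libraries against 2.86, 3.05 and 4.05 times across those of STH. HLF thus had the higher level per length of the pair in all QHMM libraries, and CIART in all STH libraries. Relative to BHLHE40, another repressor of CLOCK and ARNTL, the RPKM of CIART was 0.00795 to 0.0415 in QHMM and 0.153 to 0.386 in STH. Among 11251 tested genes with at least 20 normalized counts on average, the genes with the pattern most like that of CIART over the 6 libraries were MUSTN1, FMO2 and CDCA7. Their root mean square difference from CIART in log2 CPM (counts scaled to one library size), each gene centred on its own mean, was 0.25, 0.36 and 0.39, beside a root mean square of 1.54 for CIART itself. MUSTN1 encodes a small nuclear protein of muscle and skeleton and FMO2 a flavin-containing monooxygenase. The likeness is a description of 6 libraries in which the breed makes up most of the pattern.

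NOCT encodes nocturnin, a phosphatase of the deadenylase family that acts on NADP(H). Its normalized counts were 216, 122 and 81.6 across the QHMM libraries against 78.6, 111 and 122 across those of STH. QHMM replicate 1 stood above all other libraries for NOCT, and the others shared one range. The log2 fold change was -0.43 (SE 0.36, 95% interval -1.22 to 0.35, edgeR FDR = 0.556), and without QHMM replicate 1 it was 0.0097.

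**Figure D3:**
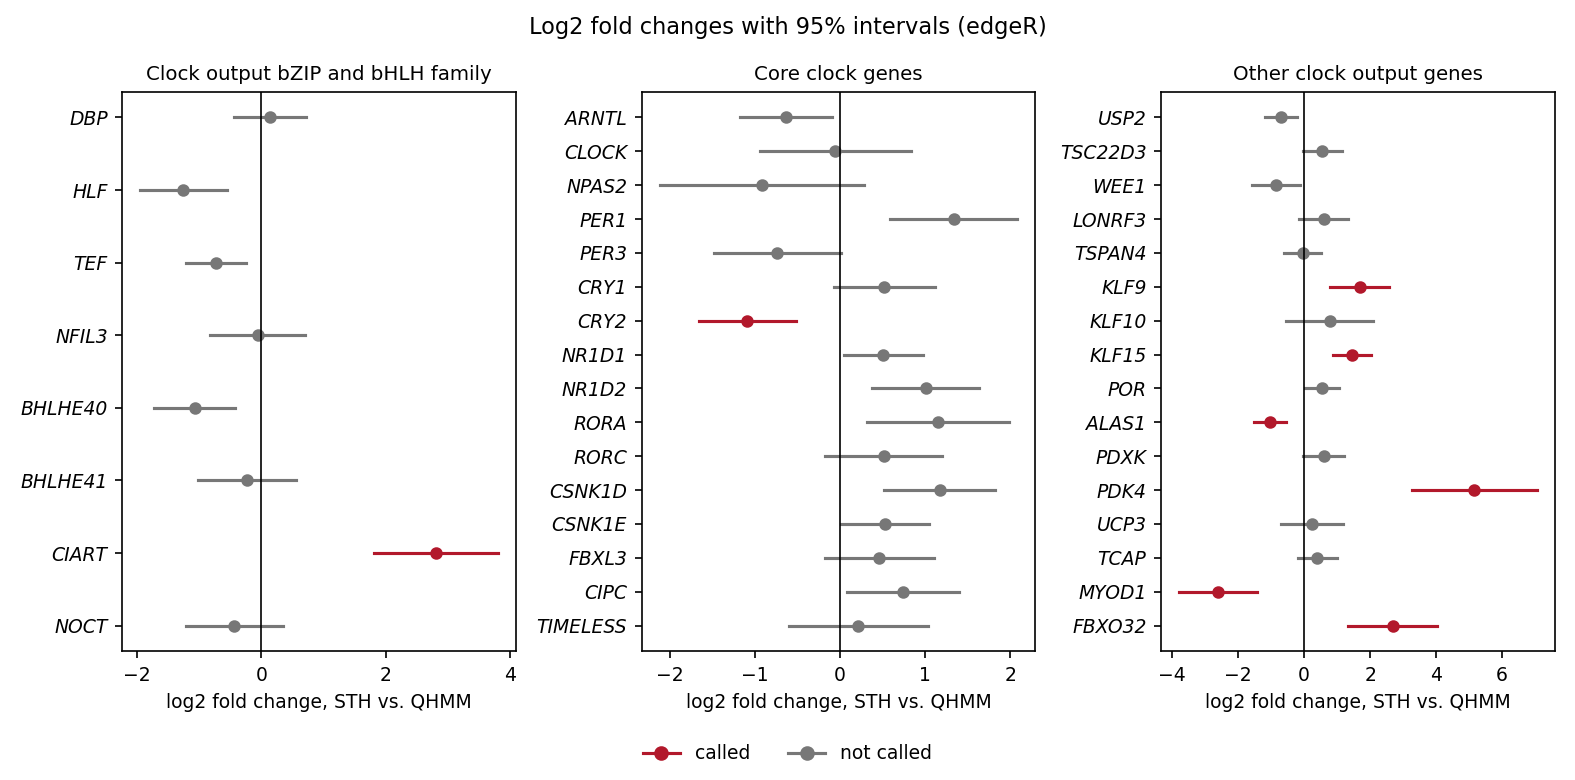
Log2 fold changes in STH vs. QHMM (x axis, a separate range in each panel) with 95% intervals from edgeR for the tested genes of the clock output family, the core clock list and the list of other clock output genes, in red where called and in grey where not. CIART is the called gene of the family, CRY2 that of the core clock, and KLF9, KLF15, ALAS1, PDK4, MYOD1 and FBXO32 those of the third list.

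For each of the 8 genes the coefficient of variation was larger in QHMM, from 18.0% for TEF to 72.1% for CIART, than in STH, from 9.15% for TEF to 35.9% for NFIL3. Of all tested genes, 44.2% had the larger coefficient of variation in QHMM. QHMM replicate 3 carried the highest value of its breed for DBP, HLF, TEF, BHLHE41 and CIART and the lowest for NFIL3, BHLHE40 and NOCT. With 3 animals per breed a coefficient of variation is imprecise, and no test of this difference was made.

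Of the core clock genes, CRY2 fell, and several others had non-overlapping libraries without passing the threshold. The list held 19 genes, of which 16 were tested: 0 were called higher and 1 lower in STH (1.62% and 1.83% of all tested genes). All STH libraries lay above those of QHMM for 6 of the 16 and below them for 3 (13% and 11.7% of all tested genes), and the median log2 fold change was 0.51 against 0.02 over all tested genes. This list too was made with earlier results known, so the shares are descriptive. CRY2, a cryptochrome that represses CLOCK and ARNTL, had 424, 372 and 576 normalized counts across the QHMM libraries against 274, 171 and 199 across those of STH, or -1.09 on the log2 scale (SE 0.26, edgeR FDR = 0.0488). The call of CRY2 was lost without any 1 of the QHMM libraries, STH replicate 2 or STH replicate 3. PER1, a period gene, had 791, 895 and 396 normalized counts across the QHMM libraries against 1853, 1161 and 2234 across those of STH, or 1.33 on the log2 scale (SE 0.34, edgeR FDR = 0.0595). As for CIART, all STH libraries lay above all QHMM libraries for PER1, but QHMM replicate 3 was the lowest for PER1 and the highest of its breed for CIART.

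ARNTL, the partner of CLOCK, had 119.6, 124 and 113 normalized counts across the QHMM libraries against 70.4, 69.97 and 90.04 across those of STH, or -0.63 on the log2 scale (SE 0.24, edgeR FDR = 0.188). NR1D2 and NR1D1, the REV-ERB receptors that repress ARNTL and NFIL3, had log2 fold changes of 1.004 (SE 0.28, edgeR FDR = 0.0826) and 0.51 (SE 0.21, edgeR FDR = 0.217). ARNTL was lower and both REV-ERB genes higher in each STH library than in any QHMM library, with no overlap. CLOCK had a log2 fold change of -0.05 (edgeR FDR = 0.960), CRY1 of 0.52 (edgeR FDR = 0.324) and PER3 of -0.74 (edgeR FDR = 0.265), with overlapping libraries in each. PER2 had 0 reads in all libraries, as did TNNT3, the troponin T gene of fast fibres, so a 0 in this table cannot be read as an absent transcript.

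The list of other clock output genes held 16 genes known to be rhythmic in several tissues or in muscle, or to respond through the D-box, and all 16 were tested. Of these genes, 4 were called higher and 2 lower in STH (1.62% and 1.83% of all tested genes). All STH libraries lay above those of QHMM for 6 of the 16 and below them for 4 (13% and 11.7% of all tested genes). The median log2 fold change was 0.55 against 0.02 over all tested genes. The list was made with earlier results of these data known, so these shares describe it and do not test it. PDK4, which encodes the kinase that switches off pyruvate dehydrogenase, had a log2 fold change of 5.16 (SE 0.86, edgeR FDR = 0.0137), FBXO32, a ubiquitin ligase of muscle atrophy, of 2.68 (SE 0.61, edgeR FDR = 0.0433), KLF9 of 1.69 (SE 0.40, edgeR FDR = 0.0494) and KLF15 of 1.46 (SE 0.26, edgeR FDR = 0.0182). ALAS1, the first enzyme of heme synthesis and a D-box target in liver, had a log2 fold change of -1.04 (SE 0.22, edgeR FDR = 0.0316), and MYOD1, a myogenic factor, of -2.61 (SE 0.53, edgeR FDR = 0.0292). Members of this list are also known for responses to fasting or glucocorticoids. Among them are PDK4, KLF9, KLF15 and FBXO32, which were called, and TSC22D3 and UCP3, which were not. The log2 fold change was 0.56 for TSC22D3 (SE 0.26, edgeR FDR = 0.282) and 0.25 for UCP3 (SE 0.42, edgeR FDR = 0.803). TSC22D3 was higher in every STH library than in any QHMM library, whereas UCP3 overlapped between the breeds. A part of fasting or glucocorticoids in these values was not tested. Single libraries set the size of several values of the called genes. The log2 fold change was 1.37 for FBXO32 and 0.94 for KLF9 without STH replicate 2, 6.89 for PDK4 without QHMM replicate 2, and -3.52 for MYOD1 without STH replicate 1. On this list, the number of called genes was 6 without STH replicate 1 and 4 without STH replicate 2 or 3, but 0 without QHMM replicate 1, 2 without QHMM replicate 2 and 1 without QHMM replicate 3.

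**Figure D4:**
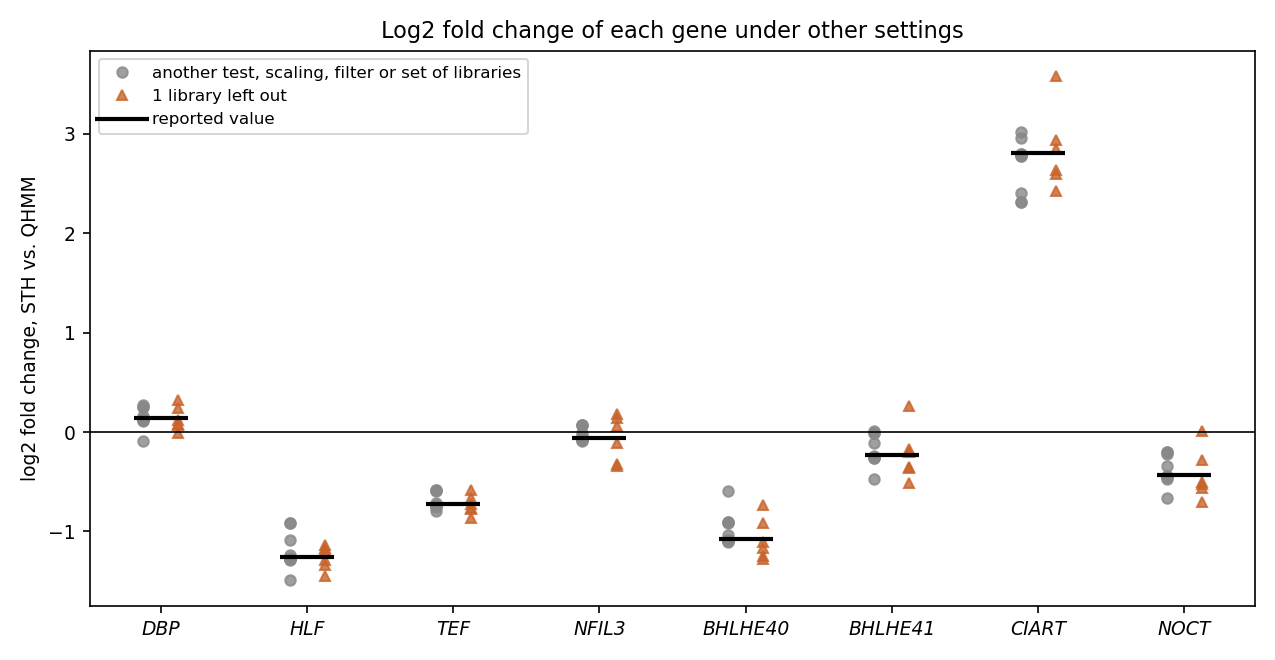
Log2 fold change in STH vs. QHMM (y axis) of each clock output gene as reported (black bar), with 1 library left out (orange triangles) and with another test, scaling, filter or set of libraries (grey circles). CIART stays between 2.31 and 3.58, HLF, TEF and BHLHE40 stay below 0, and DBP, NFIL3, BHLHE41 and NOCT have values on both sides of 0.

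The calls of HLF and BHLHE40 depended on the test. With EBSeq and the same thresholds, the paper lists HLF among its differentially expressed genes, as lower in STH. DESeq2 called HLF (log2 fold change -1.28, FDR = 0.0180) and BHLHE40 (-1.09, FDR = 0.0112), and edgeR without a filter on low counts did so too. Counts were also simulated with edgeR's dispersions, with 197 of the 12283 genes tested there changed. Of the DESeq2 calls on them, 17.8% were false, and edgeR with its filter called 14.1% of 2-fold changes. The false share depends on how many genes change, so it does not carry over to the calls of HLF and BHLHE40. TEF was called in 0 of 16 settings, with log2 fold changes between -0.87 and -0.58 and an FDR between 0.0665 and 0.289.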

How the data were processed

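Poly(A) RNA of 6 longissimus dorsi samples was sequenced on an Ion Proton. The authors filtered the reads, mapped them to Oar_v3.1, kept unique positions and deposited raw counts per gene and RPKM values, which scale the counts by gene length and library total; the aligner and counting program are not given in the sources used here. All 12 per-sample columns were used. RPKM served for levels between genes and for alternatives. Counts were tested in R 4.3.3 with edgeR 4.0.16 (TMM, filterByExpr, glmQLFit and glmQLFTest on breed) in place of EBSeq, with the paper's thresholds (FDR below 0.05 over 12506 genes, absolute log2 fold change above 0.585). SE came from the log2 fold change and F. Normalized counts are counts divided by the effective library size and multiplied by the geometric mean of these sizes. The smallest exact permutation p that these groups allow for one value is 0.1.

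Genes were named by rule: the 8 family members, 9 core clock genes and called genes of both clock lists. The 3 genes most like each called member were also named by rule. C1H1orf54, TNNT3, TSC22D3, UCP3 and the marker genes were named after their values were seen, as checks. Listed symbols missing from the table were looked up in its homology column (PER3 as LOC100125623, WEE1 as LOC100885761). The members and lists were chosen with earlier results of these data known. DESeq2 1.42.0 and limma 3.58.1 served the alternatives. The tests were first tried on simulated counts with known changes, drawn with edgeR's dispersions, where 197 of 12283 tested genes were changed. There edgeR called 14.1% of the 2-fold and 83.7% of the 4-fold changes, and 6.8% of its calls were false. DESeq2 called 32.3% and 89.8%, and 17.8% of its calls were false. No replicates were duplicates: the lowest chi-square per degree of freedom between libraries of a breed was 50.8. Plots were drawn with matplotlib 3.10.9. Sequences were not analysed here, and positions served only to find genes whose spans overlap those of the members.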

Additional observations from a re-analysis of the deposited data

How the results depend on the processing

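With 3 animals per breed and these depths, the FDR of a member moved easily. Genes called numbered 432 (203 higher, 229 lower), 975 with DESeq2, 806 without a filter on low counts, 78 with limma-trend on unfiltered log2(RPKM + 1), and 131 to 535 with 1 library left out; limma-trend on log2(RPKM + 1) gave 212 higher and 134 lower, with a median log2 fold change of 0.12 over all genes. Clock output genes called numbered 1, or 3 with DESeq2, 3 without a filter, 2 with at least 10 counts in every library and 2 with the replicate block; with 1 library left out the number was 1 throughout. HLF was called with DESeq2 (-1.28), without a filter (-1.27) and with at least 10 counts in every library (-1.29), and BHLHE40 with DESeq2 (-1.09), without a filter (-1.09) and with the replicate block (-1.03). The labels do not say whether the replicate numbers pair the animals. Same-numbered libraries deviated together with r = 0.226, -0.0380 and -0.130 across genes. Differently numbered libraries were not compared, so these values do not settle it. The replicate block gave 457 calls over all genes.

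Core clock genes called numbered 1, but 5 with DESeq2, 4 without a filter, 2 with limma-trend on log2(RPKM + 1) or log2(RPKM + 0.1), 0 with limma-trend unfiltered, 0 with upper-quartile factors, 0 with the replicate block, and 0 to 2 with 1 library left out. Other clock output genes called numbered 6, but 3 with limma-trend on either pseudocount, 1 unfiltered, and 0 to 6 with 1 library left out.

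Signs turned where values were near 0. NFIL3 had 0.0684 with limma-trend on log2(RPKM + 1), filtered or not, and 0.0712 on log2(RPKM + 0.1), where BHLHE41 had 0.0066. With 1 library left out, DBP lay between -0.011 and 0.32, NFIL3 between -0.34 and 0.18, BHLHE41 between -0.52 and 0.26, and NOCT between -0.70 and 0.0097, where the positive value was without QHMM replicate 1 and that of BHLHE41 without QHMM replicate 3. HLF lay between -1.45 and -1.14 and BHLHE40 between -1.28 and -0.74.

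Leaving out both QHMM replicate 2 and STH replicate 3, an alternative added after the data were seen, gave 11 called genes, 0 clock output genes, 0 core clock genes and 1 other clock output gene, with CIART at 2.41 and DBP at -0.0939; 2 libraries per breed remain there. The cause of the other changes was not tested.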
